A study of Homo sapiens with 24 samples.

Results

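The NF-κB subunits and their feedback inhibitors were followed as 10 genes of the 14493 in a table of read counts from SKBR3 cells, an ERBB2-amplified human breast cancer line: the subunits NFKB1, NFKB2, RELA and RELB, the IκB inhibitors NFKBIA and NFKBIE, the NF-κB target genes TNFAIP3, BIRC3 and TNFAIP2, and the kinase gene IKBKE. They were chosen by gene symbol, and 10 of 10 were in the table. RNA-seq was run on 24 libraries in 8 groups of 3 replicates. Untreated cells were collected at day 0 (proliferative cells, called untreated day-0 here) and at day 7. The treated groups were all collected at day 7 with fresh drug at day 3: ND-646 at 250 nmol/L, an inhibitor of acetyl-CoA carboxylase; TVB-3166 at 250 nmol/L, an inhibitor of fatty acid synthase; bleomycin at 10 µmol/L and doxorubicin at 10 nmol/L, which damage DNA; alisertib at 500 nmol/L, an Aurora A kinase inhibitor; and palbociclib at 1 µmol/L, a CDK4/6 inhibitor. The treatments were used to induce therapy-induced senescence (TIS). Nothing in the labels says that replicates came from separate cultures, so p-values measure the spread between these libraries, which may be technical. All cells are of 1 line, and all 7 comparisons with day-0 cells share the same 3 control libraries.

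NF-κB is a family of dimeric transcription factors. NFKB1 and NFKB2 encode precursors processed to p50 and p52, and RELA and RELB encode subunits with a transactivation domain. IκB proteins such as those of NFKBIA and NFKBIE hold dimers in the cytoplasm until an upstream kinase complex marks them for degradation. Several of these genes are themselves NF-κB targets, so that the pathway restrains itself: NFKBIA resynthesis returns dimers to the cytoplasm, TNFAIP3 (A20) edits ubiquitin on signalling adaptors, and BIRC3 (cIAP2) is a ubiquitin ligase at the TNF receptor that also limits noncanonical signalling. In senescent cells NF-κB is known for driving the secretory phenotype.

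Sequences before the gene start are shown for 5 members because these genes rose together in most treatments or, for TNFAIP2, moved differently. They are RefSeq promoter windows on GRCh38.p14, read 5′ to 3′ on the gene's strand, cut to the 250 bases before the start. Capitals mark matches to the decameric κB consensus on either strand, and matches that overlap by all but 1 base run together.
BIRC3, chr11:102317234-102317483, plus strand: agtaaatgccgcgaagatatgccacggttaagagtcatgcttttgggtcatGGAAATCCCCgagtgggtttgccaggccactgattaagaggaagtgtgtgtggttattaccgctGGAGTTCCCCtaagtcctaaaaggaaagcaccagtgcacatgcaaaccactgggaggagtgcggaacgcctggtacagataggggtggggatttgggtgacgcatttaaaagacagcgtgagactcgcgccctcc
TNFAIP3, chr6:137867009-137867258, plus strand: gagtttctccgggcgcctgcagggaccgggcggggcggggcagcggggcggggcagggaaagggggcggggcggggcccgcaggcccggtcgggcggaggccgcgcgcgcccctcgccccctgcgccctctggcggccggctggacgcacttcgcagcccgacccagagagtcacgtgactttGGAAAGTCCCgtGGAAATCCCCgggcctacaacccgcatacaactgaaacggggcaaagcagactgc
NFKBIA, chr14:35404750-35404999, minus strand: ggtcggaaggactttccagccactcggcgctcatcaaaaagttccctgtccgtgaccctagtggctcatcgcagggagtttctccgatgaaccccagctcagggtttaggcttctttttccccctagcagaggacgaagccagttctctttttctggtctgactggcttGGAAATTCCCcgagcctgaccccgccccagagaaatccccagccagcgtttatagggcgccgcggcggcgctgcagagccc
NFKB2, chr10:102394328-102394577, plus strand: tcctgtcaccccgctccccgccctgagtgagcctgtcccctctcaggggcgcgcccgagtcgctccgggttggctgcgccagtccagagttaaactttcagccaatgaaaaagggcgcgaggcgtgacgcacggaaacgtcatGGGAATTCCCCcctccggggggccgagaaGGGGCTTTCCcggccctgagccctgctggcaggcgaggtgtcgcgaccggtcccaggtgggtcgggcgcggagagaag
TNFAIP2, chr14:103123211-103123460, plus strand: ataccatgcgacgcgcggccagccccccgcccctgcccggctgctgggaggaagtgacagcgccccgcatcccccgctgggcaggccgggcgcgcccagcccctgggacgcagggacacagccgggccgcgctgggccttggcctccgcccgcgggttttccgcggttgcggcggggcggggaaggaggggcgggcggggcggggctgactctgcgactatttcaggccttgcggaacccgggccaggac
Windows were found for 8 of the 10 members, with 12 windows in all, and RELB and NFKBIE have no entry. The consensus occurred in at least 1 window of 5 members, NFKB1, NFKB2, NFKBIA, TNFAIP3 and BIRC3, and in no window of RELA, TNFAIP2 or IKBKE. Of 35116 windows of 300 bases, 11.3% held at least 1 match and 2.04% held 2 or more. BIRC3 and TNFAIP3 each held 2 matches, at positions -199 and -135 and at -67 and -55 from the start. NFKBIA held 1, at -81. The NFKB2 window shown held 3, at -107, -106 and -78, of which the first 2 overlap. Other NFKB2 windows held 0 and 2 matches. The shares of all windows are per window, while members with several windows are counted by any of them.

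Total counts ranged from 29405121 to 44316330 per library, and the lowest count of the table was 1, so a gene without reads in some library was not tested. Of the 8 markers of SKBR3 cells, 8 were present, with ERBB2 at 5125 to 8828 CPM (counts scaled to library size, with TMM factors). Of markers of other cells, 1 of 6 leukocyte genes (CD68), 1 of 5 fibroblast genes (COL1A1) and 2 of 3 endothelial genes (CDH5 and VWF) were listed. CD68, which many cell types express, was at 42.0 to 55.0 CPM in ND-646, 34.3 to 56.4 in bleomycin, 25.6 to 30.3 in TVB-3166, 8.49 to 12.9 in palbociclib and 9.23 to 10.2 in doxorubicin cells, against 4.19 to 6.07 CPM at day 0. The summed endothelial genes, of which VWF reached at most 1.47 CPM, were at 38.9 to 47.8 CPM in doxorubicin, 38.9 to 45.9 in palbociclib, 27.3 to 45.2 in bleomycin and 9.64 to 14.2 in ND-646 cells, against 4.91 to 7.26 CPM at day 0. Alisertib cells were at 4.78 to 5.75 CPM of CD68 and 6.31 to 8.52 CPM of the endothelial genes. COL1A1 was at 6.46 to 15.2 CPM over all libraries. Their part in the results was not tested. The ND-646 replicate 1 and untreated day-0 replicate 1 libraries stood apart from their groups, with a chi-square per degree of freedom of 158 to 171 and 183 to 184 against the other 2, compared with 14.3 and 19.7 between the others. Non-coding genes on the opposite strand share up to 4.12% of the exon bases of IKBKE and less of RELA, TNFAIP3, TNFAIP2 and BIRC3, and since the sources used here do not state whether counting used strand, their reads cannot be told apart from those of the members.

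The level order of the members, in CPM per kilobase of exon, was headed by NFKBIA and RELA, at 18.6 and 18.6 CPM per kilobase in untreated day-0 cells, and closed by BIRC3 at 0.316. In bleomycin cells, NFKBIA stood at 34.8 and BIRC3 at 4.32 CPM per kilobase. Levels between genes are compared only on this scale, and the values below are CPM of 1 gene across libraries. In RNA from whole cultures, fewer cells expressing a gene and less RNA per cell cannot be told apart.

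Against untreated day-0 cells, the question was which of these genes each TIS inducer altered. In edgeR's quasi-likelihood test at an adjusted p under 0.05, ND-646 raised 6 members and lowered 2, against 19.1% and 18.8% of all genes tested, and TVB-3166 raised 5 and lowered 2, against 27.4% and 27.7%. Bleomycin raised 8 and lowered 0 (24.1% and 25.3% of all genes). Doxorubicin raised 7 and lowered 0 (23.7% and 24.8%). Alisertib raised 2 and lowered 0 (17.7% and 19.6%), and palbociclib raised 3 and lowered 1 (26% and 27.2%), both close to the share of all genes. At an unadjusted p under 0.05 the numbers lowered were 0 for bleomycin and for doxorubicin and 1, RELA, for alisertib, and DESeq2 also called 0 lower in these 3 comparisons. Untreated day-7 cells differed from day-0 cells in 0 members by edgeR and by DESeq2, against 0.389% of all genes higher and 0.198% lower, and 2 members, TNFAIP2 and BIRC3, were higher at an unadjusted p under 0.05. The median log2 fold change of the members was 0.98 for bleomycin, 0.67 for doxorubicin, 0.62 for ND-646, 0.29 for TVB-3166, 0.19 for alisertib and 0.057 for palbociclib, beside medians of all genes between -0.008 and 0.018. With a fold change of at least 2 added, the numbers higher were 2 for ND-646 (RELB and BIRC3; 10.5% of all genes), 2 for TVB-3166 (RELB and BIRC3; 10.7%), 5 for bleomycin (11.1%), 4 for doxorubicin (9.67%), 1 for alisertib (BIRC3; 6.06%) and 1 for palbociclib (BIRC3; 10.4%).

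Among the subunits, RELB, a partner of p52, changed most (GRCh37 chr19:45504719-45541450, plus strand). Its level was 7.80, 9.84 and 7.69 CPM in the day-0 libraries and 9.99, 9.47 and 10.4 at day 7. It was 33.5, 19.1 and 17.0 CPM with ND-646, 18.6, 16.8 and 18 with TVB-3166 and 25.9, 22.7 and 22.3 with bleomycin. These groups do not overlap the untreated ones, and the ND-646 replicate 1 library is far above its group. The log2 fold change from day 0 was 1.44 ± 0.27 (SE, adjusted p = 0.00319) for ND-646, 1.08 ± 0.14 (SE, adjusted p = 7.63e-05) for TVB-3166, 1.49 ± 0.15 (SE, adjusted p = 9.79e-05) for bleomycin, 1.07 ± 0.14 (SE, adjusted p = 0.000251) for doxorubicin and 0.59 ± 0.14 (SE, adjusted p = 0.00757) for alisertib. Without ND-646 replicate 1 the ND-646 value was 1.09 (adjusted p = 0.000432). Palbociclib cells, at 11.4, 10.9 and 8.79 CPM, gave 0.29 ± 0.16 (SE, adjusted p = 0.154).

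NFKB2 (chr10:104153867-104162281, plus strand) rose with 4 treatments, by less: its log2 fold change was 0.75 ± 0.11 (SE, adjusted p = 0.000443) with bleomycin, 0.52 ± 0.11 (SE, adjusted p = 0.00274) with doxorubicin, 0.48 ± 0.16 (SE, adjusted p = 0.0416) with ND-646 and 0.31 ± 0.11 (SE, adjusted p = 0.0286) with TVB-3166. The bleomycin libraries were at 79.6, 82.0 and 78.9 CPM and the day-0 libraries at 43.9, 52.7 and 47.4 CPM, without overlap. The ND-646 call was lost when any of 4 libraries was left out (day-0 replicates 1, 2 and 3 and ND-646 replicate 3; adjusted p up to 0.139), and so was the TVB-3166 call (day-0 replicates 1 and 3 and TVB-3166 replicates 1 and 3; adjusted p up to 0.107). RELA (chr11:65421070-65430561, minus strand), which encodes p65, rose with bleomycin only among the comparisons with day 0, from 105, 109 and 90.2 to 131, 146 and 119 CPM (log2 fold change 0.38 ± 0.12 SE, adjusted p = 0.023), and that call was lost without day-0 replicate 3 (adjusted p = 0.0791) or bleomycin replicate 2 (adjusted p = 0.074). In a fit of all 24 libraries, RELA was higher with bleomycin than with each other treatment. The log2 difference was 0.29 against ND-646 (adjusted p = 0.0474, 31.5% of all genes passed in this pair), 0.37 against doxorubicin (adjusted p = 0.022, 15.8%), 0.42 against TVB-3166 (adjusted p = 0.0055, 29.3%), 0.49 against palbociclib (adjusted p = 0.00156, 31.5%) and 0.61 against alisertib (adjusted p = 0.000155, 36.4%). NFKB1 (chr4:103422487-103538459, plus strand), the p50 gene, passed in none of the comparisons of treated or day-7 cells with day 0, nor between TVB-3166 and ND-646 or between the inflammatory profiles compared below, and in 0 of 28 pairs of groups in the fit of all libraries. Its group means were between 57.2 and 71.1 CPM. Against day-7 cells, in a fit of these groups alone, it was higher with doxorubicin (0.25 ± 0.087 SE, adjusted p = 0.0348).

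Both IκB genes rose with ND-646, bleomycin and doxorubicin. NFKBIA (chr14:35870285-35873955, minus strand; IκBα) was at 54.7, 63.4 and 71.4 CPM at day 0, 155, 88.7 and 105 with ND-646, 109, 89.8 and 97.6 with doxorubicin and 121, 95.4 and 138 with bleomycin. All libraries of these treatments lay above all day-0 libraries. The log2 fold change was 0.86 ± 0.21 (SE, adjusted p = 0.0126) for ND-646, 0.66 ± 0.12 (SE, adjusted p = 0.00143) for doxorubicin, 0.91 ± 0.15 (SE, adjusted p = 0.00104) for bleomycin and 0.42 ± 0.13 (SE, adjusted p = 0.0147) for TVB-3166. Without ND-646 replicate 1 it was 0.61 (adjusted p = 0.00368), and the ND-646 call was lost without day-0 replicate 1 (adjusted p = 0.059) or 2 (adjusted p = 0.0531). The TVB-3166 call was lost without TVB-3166 replicate 1 (adjusted p = 0.067) or 3 (adjusted p = 0.0529). It was also lost in the fit of all 24 libraries (0.42; adjusted p = 0.0538). NFKBIE (chr6:44225903-44233525, minus strand; IκBε) was at 10.9, 11.4 and 12.2 CPM at day 0 and 26.2, 16.6 and 16.3 with ND-646, where replicate 1 again stood apart. Its log2 fold change was 1.06 ± 0.13 (SE, adjusted p = 0.000257) for bleomycin, 0.67 ± 0.12 (SE, adjusted p = 0.00154) for doxorubicin and 0.76 ± 0.21 (SE, adjusted p = 0.0204) for ND-646. The ND-646 value was 0.51 (adjusted p = 0.0114) without its replicate 1, and the call was lost without day-0 replicate 1, 2 or 3 (adjusted p of 0.0574 to 0.076). TVB-3166 gave 0.27 ± 0.12 (SE, adjusted p = 0.0808).

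BIRC3 (chr11:102188215-102210134, plus strand) rose with all 6 treatments and by the most of the members in each of them. Its level in CPM was 2.42, 2.21 and 2.48 in day-0 libraries and 3.26, 4.14 and 3.44 at day 7. It was 25.6, 37.4 and 34.1 with bleomycin, 16.8, 23.7 and 21.0 with ND-646, 19.3, 17.0 and 22.8 with doxorubicin and 14.4, 14.4 and 12.2 with TVB-3166. Alisertib libraries were at 6.07, 6.47 and 5.64 CPM and palbociclib libraries at 6.20, 6.60 and 7.86 CPM, between the untreated libraries and the other 4 treatments. Every treated library was above every untreated library. Against day 0, BIRC3 was 13.7-fold higher with bleomycin (log2 fold change 3.77 ± 0.19 SE, adjusted p = 4.66e-06), 8.57-fold with ND-646 (3.10 ± 0.21 SE, adjusted p = 2.21e-05), 8.37-fold with doxorubicin (3.07 ± 0.16 SE, adjusted p = 3.1e-06), 5.77-fold with TVB-3166 (2.53 ± 0.16 SE, adjusted p = 7.62e-07), 2.90-fold with palbociclib (1.54 ± 0.18 SE, adjusted p = 7.7e-05) and 2.55-fold with alisertib (1.35 ± 0.17 SE, adjusted p = 0.000467). No call was lost when any 1 library was left out. In the order of the group means, bleomycin passed against ND-646 (adjusted p = 0.00239; 31.5% of all genes passed in this pair), doxorubicin against TVB-3166 (adjusted p = 0.0111; 33.4%), TVB-3166 against palbociclib (adjusted p = 6.52e-05; 30.2%) and alisertib against untreated day-7 (adjusted p = 0.00793; 8.1%). ND-646 and doxorubicin (adjusted p = 0.794), palbociclib and alisertib (adjusted p = 0.502) and the untreated groups (adjusted p = 0.0593) did not pass.

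TNFAIP3 (chr6:138188351-138204451, plus strand) was at 5.11, 5.69 and 5.56 CPM at day 0, 20.6, 16.6 and 28.4 with bleomycin and 18.7, 13.3 and 18.6 with doxorubicin, without overlap. The DNA-damaging agents raised it 4.03-fold (log2 fold change 2.01 ± 0.20 SE, adjusted p = 9.21e-05) and 3.12-fold (1.64 ± 0.16 SE, adjusted p = 6.38e-05). ND-646 gave 0.90 ± 0.20 (SE, adjusted p = 0.00772), TVB-3166 0.69 ± 0.16 (SE, adjusted p = 0.00316) and palbociclib 0.53 ± 0.19 (SE, adjusted p = 0.0344). The palbociclib call was lost when any library but palbociclib replicate 2 was left out (adjusted p up to 0.166). Doxorubicin stood above ND-646, the next group in the order of its levels (adjusted p = 0.00751; 44% of all genes passed in this pair).

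TNFAIP2 (chr14:103587813-103603776, plus strand), a gene first known for its induction by TNF, moved in opposite directions. It was at 9.30, 12.9 and 13.0 CPM at day 0, 5.18, 7.32 and 7.51 with ND-646 and 7.79, 9.14 and 7.57 with TVB-3166. It was 26.0, 29.5 and 38.8 CPM with bleomycin and 24.4, 22.2 and 26.7 with doxorubicin. The inhibitors of fatty acid synthesis lie below all untreated libraries, and the DNA-damaging agents above them. It fell 1.77-fold with ND-646 (log2 fold change -0.83 ± 0.23 SE, adjusted p = 0.0211) and 1.43-fold with TVB-3166 (-0.52 ± 0.17 SE, adjusted p = 0.0217), and rose 2.68-fold with bleomycin (1.42 ± 0.19 SE, adjusted p = 0.000351) and 2.1-fold with doxorubicin (1.07 ± 0.15 SE, adjusted p = 0.000386). Palbociclib gave 0.46 ± 0.15 (SE, adjusted p = 0.0261), a call lost without day-0 replicate 1 or palbociclib replicate 1 or 3 (adjusted p of 0.0591 to 0.088). The ND-646 call was lost without day-0 replicate 2 or 3 (adjusted p of 0.079 to 0.0817), and the TVB-3166 call without day-0 replicate 2 or 3 or TVB-3166 replicate 1 or 3 (adjusted p of 0.0623 to 0.0819). Doxorubicin passed against palbociclib, its neighbour in level (adjusted p = 0.0148; 14.9% of all genes).

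IKBKE (chr1:206643819-206670222, plus strand) encodes IKKε, a kinase related to the IκB kinases that acts in interferon induction. Its levels were 17.3, 21.2 and 16.8 CPM at day 0, 11.4, 10.7 and 14.3 with ND-646, 11.8, 11.5 and 13.2 with TVB-3166 and 14.1, 12.4 and 14.9 with palbociclib. The log2 fold change was -0.61 ± 0.18 (SE, adjusted p = 0.0285), -0.60 ± 0.13 (SE, adjusted p = 0.00288) and -0.42 ± 0.14 (SE, adjusted p = 0.0232) in that order. The ND-646 call was lost without day-0 replicate 1, 2 or 3 or ND-646 replicate 2 (adjusted p of 0.0548 to 0.12), and the palbociclib call without day-0 replicate 2 or palbociclib replicate 1 or 2 (adjusted p of 0.0511 to 0.113). Untreated day-7 libraries, at 16.8, 13.8 and 14.3 CPM, were also all below the day-0 libraries, though this passed no test (log2 fold change -0.29 ± 0.13 SE, adjusted p = 0.222).

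**Figure D1:**
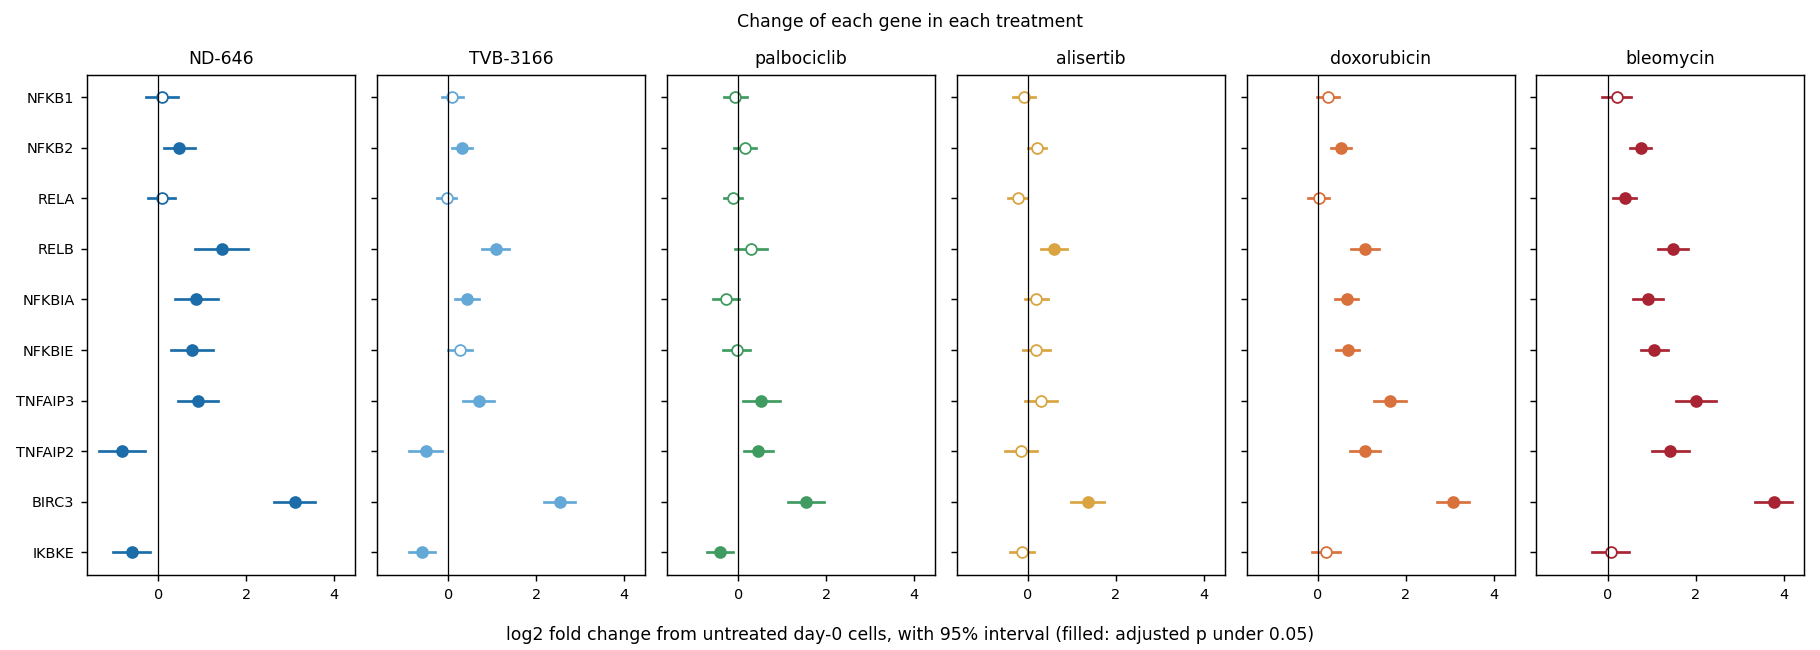
Log2 fold change from untreated day-0 cells (horizontal axes) of each member in each of 6 treatments, with 95% intervals and filled points at an adjusted p under 0.05. BIRC3 is filled in all 6 treatments, and TNFAIP2 lies left of 0 for ND-646 and TVB-3166 and right of 0 for bleomycin and doxorubicin.

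Untreated day-7 cells match the treated cells in time. The labels name refeeding at day 3 for the treated groups and none for these cells. Drug and refeeding therefore cannot be told apart here. Against them, ND-646 raised the same 6 members (17.2% of all genes) and lowered 1, TNFAIP2 (17.1%). TVB-3166 raised 4, NFKB2, RELB, TNFAIP3 and BIRC3 (25.4%), and lowered TNFAIP2 (26.1%). Bleomycin raised the same 8 (22.4%) and lowered 0 (23.2%), and doxorubicin raised 9, adding NFKB1 and IKBKE (21.9%), and lowered 0 (21.5%). Alisertib raised RELB and BIRC3 (9.55%) and lowered TNFAIP2 (9.49%), and palbociclib raised BIRC3 (22%) and lowered NFKBIA (22.9%). In the fit of all 24 libraries, BIRC3 also passed against day-7 cells with alisertib (adjusted p = 0.00793) and palbociclib (adjusted p = 0.000147). The other calls of these treatments did not pass in that fit. RELB with alisertib was at 0.35 (adjusted p = 0.232). TNFAIP2 with alisertib was at -0.51 (adjusted p = 0.0546). NFKBIA with palbociclib was at -0.43 (adjusted p = 0.065). Calls of IKBKE in ND-646, TVB-3166 and palbociclib, of NFKBIA in TVB-3166, and of TNFAIP3 and TNFAIP2 in palbociclib were lost with the day-7 reference.

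Leaving out day-0 replicate 1, which stood apart, left 3 of the 6 members higher with ND-646 and 1 of 2 lower, 4 of 5 higher with TVB-3166 and 1 of 3 higher with palbociclib, where 2 were then lower. The bleomycin, doxorubicin and alisertib counts did not move. Leaving out ND-646 replicate 1 left the ND-646 counts at 6 and 2. Without day-0 replicate 1, the ND-646 values that lost their calls were 0.41 for NFKB2, 0.77 for NFKBIA, 0.72 for NFKBIE and -0.66 for IKBKE. Shares of all genes are not given for fits with a library or a group left out, here or below. A general loss of calls therefore cannot be told apart from a loss particular to the members.

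ND-646 and TVB-3166 block successive enzymes of fatty acid synthesis, and a direct comparison asked whether the members responded differently. None passed (0 of 10 higher, 0 of 10 lower; 0.52% and 0.198% of all genes), and at an unadjusted p under 0.05, 2 were lower with TVB-3166, BIRC3 and NFKBIE. The log2 difference, TVB-3166 minus ND-646, was -0.58 ± 0.17 (SE, adjusted p = 0.178) for BIRC3, with a 95% interval of -0.97 to -0.19, and -0.50 ± 0.20 (SE, adjusted p = 0.3) for NFKBIE. DESeq2 called BIRC3 (adjusted p = 0.0434), as did edgeR on all 24 libraries (adjusted p = 0.0203) and without ND-646 replicate 1 (adjusted p = 0.00711). For RELB the interval was -0.94 to 0.21, for TNFAIP2 -0.17 to 0.76 and for NFKB1 -0.27 to 0.27.

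The study sorted the inducers by secreted proteins into a high inflammatory profile (bleomycin, doxorubicin and alisertib) and a low one (ND-646, TVB-3166 and palbociclib). Between the means of these groups, 5 members were higher in the high profile (18.5% of all genes) and 0 lower (18.2%; 0 also at an unadjusted p under 0.05 and by DESeq2). The largest difference was that of TNFAIP2, 2.09-fold (log2 1.06 ± 0.09 SE, adjusted p = 4e-07), the 1 member also past 2-fold (2.75% of all genes). It was 0.60 ± 0.12 (SE, adjusted p = 0.00103) for TNFAIP3, 0.56 ± 0.10 (SE, adjusted p = 0.000218) for IKBKE, 0.33 ± 0.09 (SE, adjusted p = 0.0102) for BIRC3 and 0.30 ± 0.10 (SE, adjusted p = 0.0251) for NFKBIE. The p-values measure the spread between libraries within a treatment, not that between the inducers of a profile. They therefore cannot speak for such profiles in general. Libraries of the profiles overlapped for every member. Alisertib, at a mean of 6.06 CPM of BIRC3, was below each group of the low profile (means of 6.89 to 20.5 CPM). For TNFAIP2, alisertib, at 10.6 ± 1.44 CPM, was below palbociclib, at 16.2 ± 1.01 CPM (mean ± SD, n = 3). Leaving out 1 of the 6 groups at a time, chosen after seeing the data, kept the TNFAIP2 and IKBKE calls each time. Without bleomycin, TNFAIP3 lost its call (0.25; adjusted p = 0.126), NFKBIE lost its call (0.09; adjusted p = 0.554), and the BIRC3 difference turned negative (-0.19; adjusted p = 0.147). Without palbociclib, BIRC3 was at -0.09 (adjusted p = 0.504) and NFKBIE at 0.12 (adjusted p = 0.43). Without doxorubicin 2 calls were lost, among them that of BIRC3, at 0.17 (adjusted p = 0.267), and without TVB-3166 1 call was lost. Without ND-646 replicate 1, 8 members were higher.

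**Figure D2:**
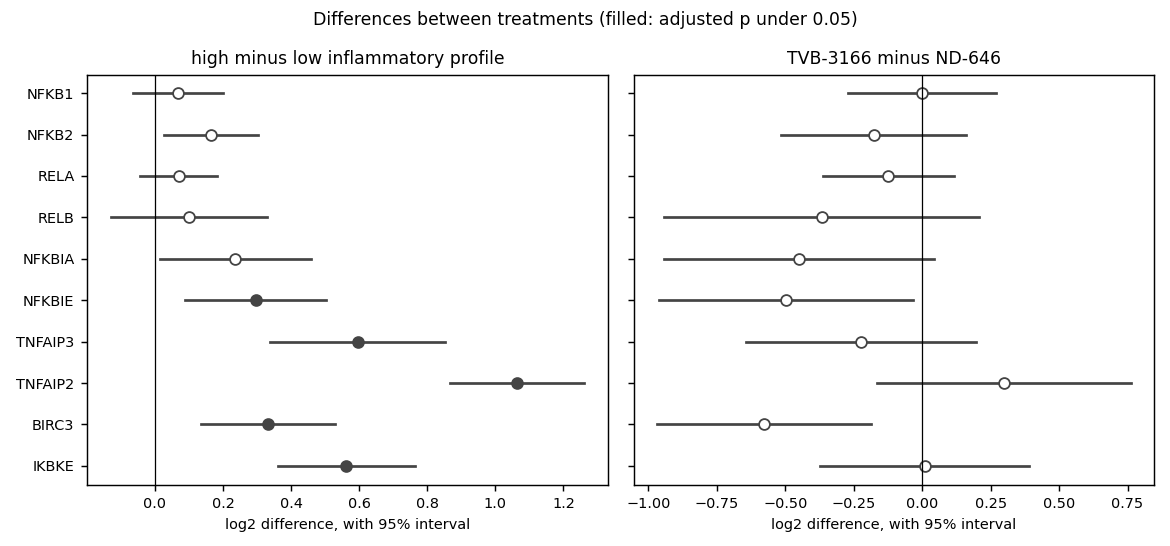
Log2 differences (horizontal axes, with 95% intervals) of each member between the high and low inflammatory profiles and between TVB-3166 and ND-646, with filled points at an adjusted p under 0.05. TNFAIP2 has the largest difference between the profiles, 1.06, and no point is filled for TVB-3166 against ND-646.

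Genes around the members were taken from 5 lists. For all genes, the shares called higher and lower than day 0 were 19.1% and 18.8% with ND-646 and 27.4% and 27.7% with TVB-3166. They were 24.1% and 25.3% with bleomycin, 23.7% and 24.8% with doxorubicin, 17.7% and 19.6% with alisertib and 26% and 27.2% with palbociclib. Between the profiles they were 18.5% and 18.2%, and for TVB-3166 against ND-646 0.52% and 0.198%. Counts near these shares do not set a list apart. Of 12 other subunits and inhibitors, 4 rose and 0 fell with ND-646, and 6 rose and 1 fell with bleomycin, with a median log2 fold change of 0.21 and 0.52. NLRC5, an inhibitor of IκB kinase signalling also known for MHC class I induction, had 3.25 ± 0.42 (SE, adjusted p = 0.000525) with ND-646 and 4.37 ± 0.36 (SE, adjusted p = 4.06e-05) with bleomycin. NFKBIZ, an atypical IκB, had 1.90 ± 0.63 (SE, adjusted p = 0.0413) and 2.04 ± 0.59 (SE, adjusted p = 0.0173). Day-0 means of these genes were low, at 0.318 CPM for NLRC5 and 0.843 for NFKBIZ. With ND-646 and with bleomycin, NLRC5 reached 3.03 and 6.47 CPM and NFKBIZ 3.14 and 3.45. Both NFKBIZ calls were lost against day-7 cells, at 1.07 ± 0.61 (SE, adjusted p = 0.208) and 1.22 ± 0.57 (SE, adjusted p = 0.107). COMMD1, which promotes RELA degradation, fell with bleomycin (-1.01 ± 0.15 SE, adjusted p = 0.000611). The other treatments gave 4 higher and 3 lower for TVB-3166 (NFKBIB, OTULIN and COMMD1 lower), 6 and 1 for doxorubicin, 3 and 2 for alisertib and 3 and 3 for palbociclib. Between the profiles, 4 were higher and 1 lower in the high one.

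Of 30 kinases and adaptors, 12 rose and 2 fell with ND-646 and 14 rose and 2 fell with bleomycin, with medians of 0.15 and 0.40. TRAF1, a TNF receptor adaptor, had 2.44 ± 0.33 (SE, adjusted p = 0.000627) with ND-646 and 3.40 ± 0.32 (SE, adjusted p = 6.71e-05) with bleomycin. IRAK2, of interleukin-1 signalling, had 1.79 ± 0.45 (SE, adjusted p = 0.0137) and 2.77 ± 0.45 (SE, adjusted p = 0.000878). Day-0 means of TRAF1 and IRAK2 were low, at 0.311 and 0.249 CPM. With ND-646 and with bleomycin, TRAF1 reached 1.71 and 3.28 CPM and IRAK2 0.865 and 1.68. CARD10, a scaffold of the CBM complex, fell with both (-0.79 ± 0.18 (SE, adjusted p = 0.0087) and -0.74 ± 0.12 (SE, adjusted p = 0.00103)), as did MALT1, its protease (-0.62 ± 0.18 (SE, adjusted p = 0.0243) and -0.38 ± 0.14 (SE, adjusted p = 0.0459)). Against day-7 cells both MALT1 calls were lost, at -0.40 ± 0.17 (SE, adjusted p = 0.0994) and -0.15 ± 0.13 (SE, adjusted p = 0.365), and so was the ND-646 call of IRAK2, at 0.54 ± 0.35 (SE, adjusted p = 0.271). The counts higher and lower were 14 and 3 for TVB-3166, 15 and 2 for doxorubicin, 7 and 3 for alisertib and 12 and 5 for palbociclib, and 9 and 5 between the profiles.

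Of 21 ligands and receptors, 11 were in the table, and 6 rose with ND-646 and 8 with bleomycin, with 0 falling in either (medians 0.68 and 0.76). TNF, the cytokine, had 1.62 ± 0.29 (SE, adjusted p = 0.00268) and 2.51 ± 0.34 (SE, adjusted p = 0.000372), and TNFSF10 (TRAIL) had 2.67 ± 0.38 (SE, adjusted p = 0.00086) and 3.85 ± 0.34 (SE, adjusted p = 5.25e-05). Their day-0 means were low, at 0.834 and 0.916 CPM. The ND-646 call of TNF was lost against day-7 cells, at 0.94 ± 0.34 (SE, adjusted p = 0.0628). TVB-3166 gave 7 higher and 0 lower, doxorubicin 7 and 0, alisertib 3 and 1 and palbociclib 6 and 1, and between the profiles 1 was higher in the high one, IL1R1, and 3 were lower, TNFRSF1A, LTBR and TNFRSF11A.

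Of 30 effector target genes, 15 were in the table, and 7 rose and 1 fell with ND-646 while 11 rose and 0 fell with bleomycin (medians 1.29 and 2.16). LCN2, a siderophore-binding secreted protein, went from 0.936 ± 0.465 CPM at day 0 to 120.2 ± 24.3 CPM with ND-646 and 36.7 ± 22.4 CPM with bleomycin. SAA1, an acute-phase gene, had 0.37 ± 0.44 (SE, adjusted p = 0.54) with ND-646 and 4.69 ± 0.37 (SE, adjusted p = 3.06e-05) with bleomycin. Its mean was 0.382 CPM at day 0 and 9.77 CPM with bleomycin. LCN2 and CSF1, a macrophage growth factor, were the members of this list that differed between the FASN and ACC inhibitors, both lower with TVB-3166 (-2.64 ± 0.27 (SE, adjusted p = 0.035) and -0.94 ± 0.15 (SE, adjusted p = 0.0468)). CD83, at a low mean of 0.565 CPM at day 0, fell with ND-646 (-1.40 ± 0.45 SE, adjusted p = 0.0368). It did not pass the filter on low counts in the fit of ND-646 with day-7 cells. The other treatments gave 9 higher and 1 lower for TVB-3166, 11 and 1 for doxorubicin, 7 and 1 for alisertib and 8 and 1 for palbociclib. Between the profiles, 8 were higher in the high one and 4 lower, CX3CL1, BCL2L1, SDC4 and LCN2.

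Of 21 interferon-stimulated genes, 13 were in the table, and 10 rose and 0 fell with ND-646, 12 and 0 with TVB-3166, 13 and 0 with bleomycin, 12 and 0 with doxorubicin, 9 and 0 with alisertib and 4 and 4 with palbociclib. Between the profiles, 11 were higher in the high one and 1, STAT2, lower. OAS1 and OAS2, which sense double-stranded RNA, had 3.59 ± 0.29 (SE, adjusted p = 4.91e-05) and 3.44 ± 0.31 (SE, adjusted p = 8.39e-05) with ND-646 and 4.18 ± 0.27 (SE, adjusted p = 1.22e-05) and 5.90 ± 0.22 (SE, adjusted p = 1.47e-06) with bleomycin. MX1, an antiviral GTPase, had 2.08 ± 0.37 (SE, adjusted p = 0.0028) and 4.70 ± 0.30 (SE, adjusted p = 1.27e-05). Day-0 means were low, at 2.36 CPM for OAS1, 0.728 for OAS2 and 0.479 for MX1. OAS2 was also higher with TVB-3166 than with ND-646 (1.64 ± 0.24 SE, adjusted p = 0.0404). The shares of all genes to set beside these counts are those given before the first list.

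**Figure D3:**
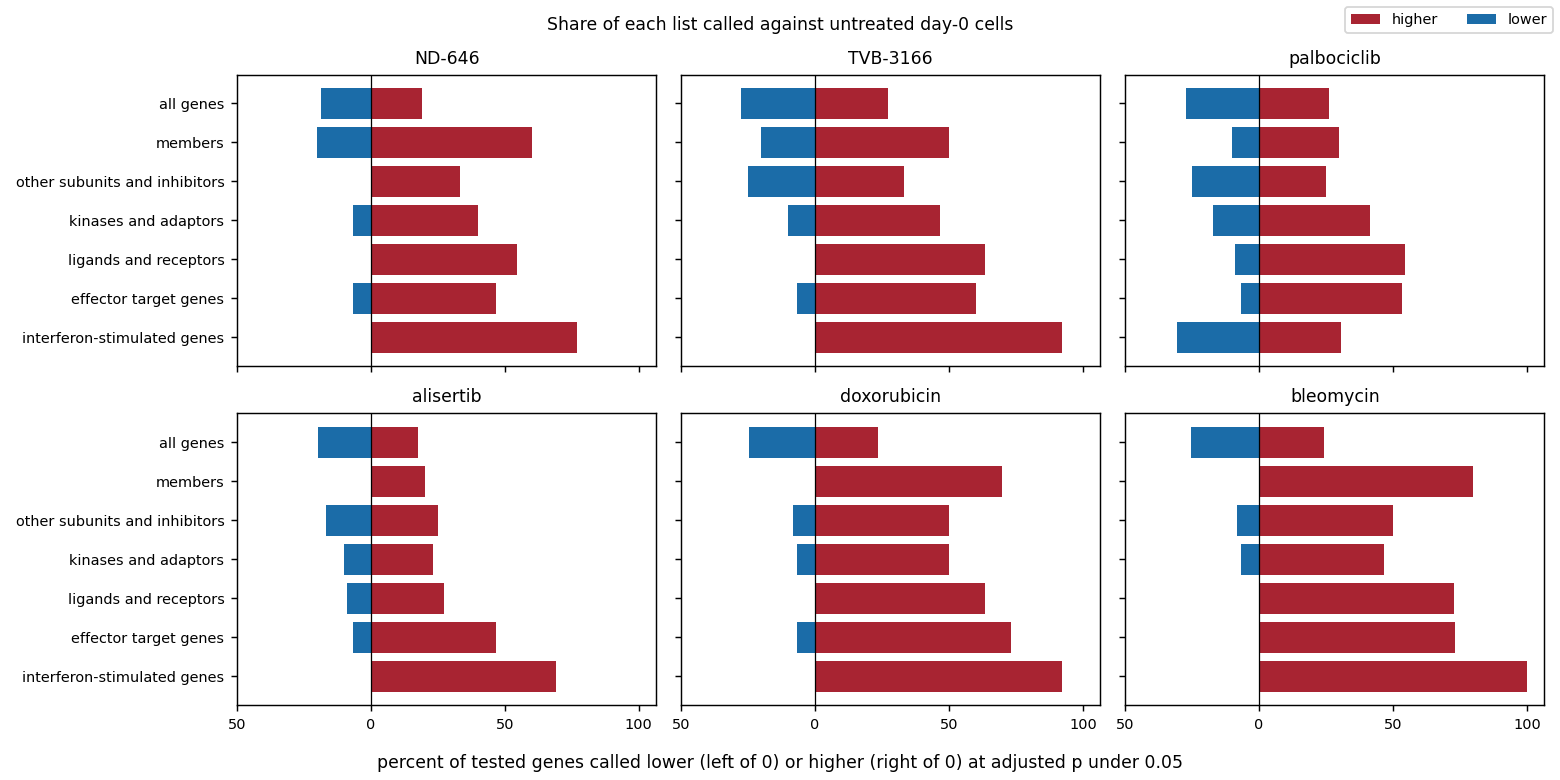
Percent of the tested genes of all genes, the members and each of 5 lists called higher (right of 0) or lower (left of 0) than in untreated day-0 cells at an adjusted p under 0.05, for 6 treatments. Interferon-stimulated genes reach 13 of 13 higher with bleomycin, and 4 higher and 4 lower with palbociclib.

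By Pearson's r over the 8 group means of log2 CPM, given as a description because only 8 means enter each r, the genes most like RELB were CSF1 (r = 0.992) and PPP1R15A (r = 0.984). For BIRC3 they were POGZ (r = 0.991) and PIK3CA (r = 0.991), for TNFAIP2 PARP4 (r = 0.979) and DICER1 (r = 0.977), and for TNFAIP3 DYRK1A (r = 0.986) and UTP25 (r = 0.985). For NFKB1 they were H4C15 (r = 0.973) and AGPS (r = 0.959), for NFKB2 PLEKHA8 (r = 0.993) and TRIB1 (r = 0.992), and for RELA GOSR1 (r = 0.979) and KIF3B (r = 0.974). For NFKBIA they were MSL2 (r = 0.984) and ZBED8 (r = 0.969), for NFKBIE LOC442028 (r = 0.985) and WNT4 (r = 0.984), and for IKBKE ZKSCAN5 (r = 0.968) and SLC43A2 (r = 0.958). The number of genes over 0.9 ranged from 24 for NFKB1 to 413 for BIRC3.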

How the data were processed

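RNA of 24 SKBR3 libraries was sequenced by the authors, who name a stranded kit. Per the labels and the methods, the pipeline used HISAT2, StringTie, GRCh37 and DESeq2. The deposited values are the authors' whole-number read counts per gene, without normalization, and the counting settings are not given in the sources used here. Library totals were 29405121 to 44316330 counts, and how far counting error limits a value depends on the gene's own count.

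The quasi-likelihood test of edgeR 4.0.16 (R 4.3.3, 2-sided) was applied to genes kept by filterByExpr, with TMM factors, on the libraries of the compared groups alone, and p-values were adjusted by Benjamini-Hochberg over every gene tested. A call is an adjusted p under 0.05. Levels are CPM with the TMM factors of all 24 libraries (log2 CPM with a prior count of 2), divided by exon length where genes are compared. The order of groups came from 1 fit of 24 libraries. DESeq2 1.42.0, RLE factors, library totals, other filters, a fold change of 2, the day-7 reference, a block for the replicate number and leaving out libraries were tried. Scripts were tested on simulated data. There edgeR recovered 48.5% of 2-fold changes for TVB-3166 against ND-646, 52% for ND-646 against day 0 and 91.9% between the profiles. Counts of calls therefore do not compare evenly between comparisons. For TVB-3166 against ND-646, DESeq2 recovered 66.7% of 2-fold changes, with 43 false calls against 9 for edgeR.

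In TVB-3166 against ND-646, deviations of all 3 pairs of same-numbered libraries correlated over 0.1 (0.218 to 0.384). This likeness comes from the data, since the labels name no shared day or batch. The main tests, of this and of the other comparisons, did not use the replicate number. A block for it was tried in each comparison. The members and gene lists were chosen with earlier results of these data known. Outside the members, the genes named are up to 2 highest and 2 lowest called genes of each list for ND-646 and for bleomycin, plus the 2 most similar to each member. Positions are from GENCODE on GRCh37, and promoters from RefSeq on GRCh38.p14.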

Additional observations from a re-analysis of the deposited data

Results flagged for a closer look

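The test of the difference between the high and low inflammatory profiles, over 18 libraries, set apart 5 members whose change from untreated cells differed between these groups of treatments. It measures the spread between libraries within a treatment, not that between the inducers of a profile. The log2 difference was 1.06 for TNFAIP2, 0.596 for TNFAIP3, 0.562 for IKBKE, 0.331 for BIRC3 and 0.297 for NFKBIE. TNFAIP2 was below day-0 cells with ND-646 and TVB-3166 and above them with bleomycin and doxorubicin. IKBKE was lower than at day 0 with ND-646, TVB-3166 and palbociclib, and did not pass with bleomycin, doxorubicin or alisertib. Against untreated day-7 cells these lower calls were lost (log2 fold change -0.31, -0.30 and -0.11 in that order). With that reference only doxorubicin passed, and IKBKE was higher with it (0.48). The BIRC3 difference turned negative without the bleomycin or the palbociclib group.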

How the results depend on the processing

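Over the alternatives other than leaving out a library, 682 of 750 member values kept their direction and their side of the threshold, and 30 changed sign, 0 of them past the threshold, and for these and the other moves below the cause was not tested. Asking also for a fold change of at least 2, at a raw or at an adjusted p under 0.05, gave 2 members higher and 0 lower for ND-646, 2 and 0 for TVB-3166, 5 higher for bleomycin, 4 for doxorubicin, 1 for alisertib, 1 higher and 0 lower for palbociclib and 1 higher between the profiles. With the day-7 reference, the number lower was 1 for ND-646, TVB-3166 and alisertib, and the number higher was 1 for palbociclib. DESeq2 and the fit of all 24 libraries each gave 1 lower for TVB-3166 against ND-646. With library totals only, chosen after seeing the data, palbociclib lowered 0, and 8 members were higher in the high profile. NFKB2 then lost its calls with ND-646 (0.35; adjusted p = 0.129) and TVB-3166 (0.31; adjusted p = 0.0503). That scaling moved the median log2 fold change of all genes to 0.12 for doxorubicin, 0.13 for alisertib, 0.12 for palbociclib, 0.10 for day-7 cells and 0.12 for TVB-3166 against ND-646. Leaving out groups from the profiles, also chosen later, gave 2 higher without bleomycin, 3 without doxorubicin, 8 without alisertib, 8 without ND-646 and 3 without palbociclib.

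The replicate number as a block lowered 1 member, RELA, with alisertib (-0.23; adjusted p = 0.0476), gave 5 higher for ND-646, where NFKB2 lost its call (0.47; adjusted p = 0.0727), 8 for doxorubicin, where NFKB1 passed (0.24; adjusted p = 0.0469), and 7 between the profiles, where NFKB2 (0.17; adjusted p = 0.0168) and NFKBIA (0.25; adjusted p = 0.00627) passed, and it changed no other call. By the labels, the libraries of every comparison, also those of TVB-3166 and ND-646, share only a number. Every library correlated best with its own number in the bleomycin, alisertib and day-7 comparisons with day-0 cells and in TVB-3166 against ND-646, and 3 to 5 of 6 did in the others with day-0 cells. Between the profiles, a library correlated best with its own number in 73 of 90 checks, and 36 of 45 correlations of same-numbered libraries were over 0.1, the lowest at -0.15.

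Values that changed sign were as follows. With library totals only, the log2 values were -0.033 for NFKB1 in ND-646, -0.032 for RELA in ND-646, 0.033 for NFKB1 in alisertib, 0.059 for NFKB1 in palbociclib, 0.016 for RELA in palbociclib, 0.088 for NFKBIE in palbociclib, 0.086 for NFKB2 in untreated day-7, 0.12 for NFKB1 in TVB-3166 versus ND-646 and 0.0066 for RELA in TVB-3166 versus ND-646. With the day-7 reference, the log2 values were 0.20 for RELA in TVB-3166, 0.017 for RELA in alisertib, 0.17 for IKBKE in alisertib and 0.13 for RELA in palbociclib. With no filter on low counts, the log2 values were -0.00033 for RELA in doxorubicin and 0.0022 for NFKB1 in TVB-3166 versus ND-646. With DESeq2, the log2 values were -0.0051 for NFKB1 in untreated day-7 and -0.0024 for IKBKE in TVB-3166 versus ND-646. With RLE size factors, the log2 values were -0.0051 for NFKB1 in untreated day-7 and -0.0019 for IKBKE in TVB-3166 versus ND-646. With at least 10 counts in every library, the log2 values were -0.0026 for NFKB1 in untreated day-7 and 0.0042 for NFKB1 in TVB-3166 versus ND-646. With all 24 libraries in 1 fit, the log2 values were -0.0068 for NFKB1 in untreated day-7 and -0.0014 for IKBKE in TVB-3166 versus ND-646. With the replicate block, the log2 value was 0.0035 for NFKB1 in TVB-3166 versus ND-646. Without the bleomycin group, the log2 values were -0.092 for RELA in high versus low profile, -0.12 for RELB in high versus low profile and -0.19 for BIRC3 in high versus low profile. Without the palbociclib group, the log2 values were -0.22 for RELB in high versus low profile, -0.068 for NFKBIA in high versus low profile and -0.092 for BIRC3 in high versus low profile. Leaving out each library in turn gave 3 to 6 members higher and 0 to 2 lower for ND-646, 3 to 5 and 1 to 2 for TVB-3166, 0 to 1 lower for alisertib, 1 to 3 higher and 0 to 2 lower for palbociclib, 0 to 1 lower for TVB-3166 against ND-646 and 4 to 8 higher between the profiles. The log2 ranges of the values that changed sign this way were NFKB1 in ND-646 -0.033 to 0.15, RELA in ND-646 -0.0046 to 0.13, NFKB1 in TVB-3166 -0.025 to 0.16, RELA in TVB-3166 -0.12 to 0.017, IKBKE in bleomycin -0.073 to 0.24, RELA in doxorubicin -0.062 to 0.096, NFKB1 in palbociclib -0.16 to 0.022, NFKBIE in palbociclib -0.11 to 0.030, NFKB1 in untreated day-7 -0.11 to 0.078, NFKB2 in untreated day-7 -0.065 to 0.071, NFKBIE in untreated day-7 -0.047 to 0.15, TNFAIP3 in untreated day-7 -0.062 to 0.19, NFKB1 in TVB-3166 versus ND-646 -0.071 to 0.042 and IKBKE in TVB-3166 versus ND-646 -0.074 to 0.14. The depth limits the members with few reads most, such as BIRC3 at 2.21 to 2.48 CPM in day-0 cells, where counting error adds to the spread between replicates.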
